A study of Gallus gallus with 24 samples.

Results

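In chick intestinal mesoderm, 113 of 17136 genes were higher in hindgut than in midgut while their mean level in midgut carrying a Hoxd13 virus stayed close to that in control midgut. They were chosen by their measured levels in the control midguts, the control hindguts and Hoxd13 midgut 1 to 3. Levels were taken as log2(CPM + 1), where CPM is the usual count scaled to the total of its library. A gene was a member when its mean over the control hindguts exceeded its mean over the control midguts by at least 0.8, every control hindgut lay above every control midgut, and the mean of Hoxd13 midgut 1 to 3 differed from that of the control midguts by less than 0.3 in either direction. Hoxd13 midgut 4 played no part in the choice. Levels in the libraries that were used, and the differences between them, are therefore a description with no test.

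Hox genes encode transcription factors that are active in nested domains along the body axis, and Hoxd13 belongs to the posterior end of its cluster. In the chick gut its expression in the mesoderm marks the most posterior part, and gut mesoderm is known to instruct the regional form of the epithelium that lines it. A gene that differs between midgut and hindgut mesoderm may follow Hoxd13 or some other regional signal, and the study misexpressed Hoxd13 in the midgut to ask which genes follow it.

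The compared tissue was mesoderm from which the endoderm had been peeled off by hand, in 3 groups of 4 libraries. Control midgut and control hindgut are labelled RCAS-mGFP and Hoxd13 midgut is labelled RCAS-Hoxd13, where RCAS is a replicating avian retroviral vector. Per the labels' protocols both constructs were introduced by electroporation in the egg at stage HH 17, aimed at the splanchnic lateral plate mesoderm of the midgut level, and the same is given for the hindgut samples. The labels give embryonic days 12 and 14, but the 2 deposited tables differ in 0 lines below their headers, so the age behind these values is not known and the tables were used as 1 set of 12 libraries.

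The genes are listed by Ensembl identifier only. The reference gene table had 0 filled Ensembl entries, and 0 of the 17136 identifiers occur in it. No member could therefore be given a symbol, a role, a position or a sequence here. For the same reason the mesoderm and Hoxd13 itself could not be checked by marker genes. Library totals ran from 7607185 to 10880695 counts. Hoxd13 midgut 4 stood apart: 13480 genes had counts in it, against 14565 to 14832 elsewhere, and 34.0% of its total fell on its top 100 genes, against 21.7% to 24.1% in the others. Values from it are given separately throughout.

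Hindgut-high genes, those that met both hindgut conditions, numbered 381. The members were 29.7% of them, 250 lay above the bound on the Hoxd13 difference and 18 lay below it. Over all 17136 genes, 65.2% were within the same bound. This share includes 1069 genes at 0 in every library, which are always within it. The differences of hindgut and of Hoxd13 midgut are taken from the same control midguts, so these shares are not independent of each other. A mean difference under the bound does not show that a gene did not respond to Hoxd13. The limits were not set at a gap in the values. The member closest to the hindgut limit differed by 0.803 and the nearest excluded gene by 0.799. At the upper bound the nearest values were 0.296 inside and 0.304 outside, and at the lower bound -0.297 and -0.301. Another 33 hindgut-high genes had Hoxd13 differences from 0.3 to 0.4. The smallest distance between the lowest hindgut and the highest midgut of a member was 0.0081, and 17 genes that met the other conditions were left out because these groups met or overlapped.

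**Figure D1:**
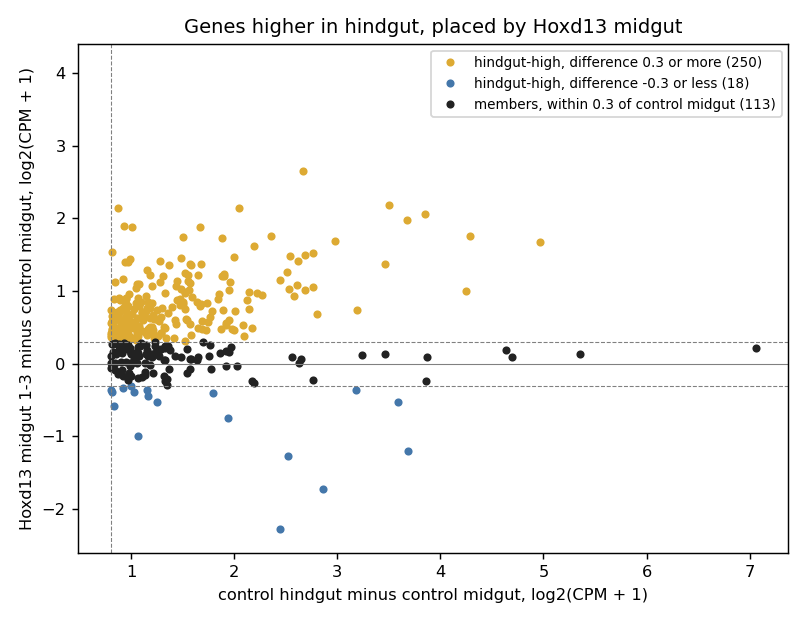
Each point is one of the 381 hindgut-high genes. The horizontal axis gives control hindgut minus control midgut and the vertical axis Hoxd13 midgut 1 to 3 minus control midgut, both as differences of mean log2(CPM + 1). The 113 members form the band between the dashed bounds at 0.3 on either side of 0, with 250 genes above and 18 below, and 1 gene above the band lies beyond the upper end of the axis at 4.4.

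The hindgut difference of the members ran from 0.803 to 7.06 with a median of 1.16, a 2.23-fold difference on this scale. It was at least 1 in 75 members and at least 2 in 15. Most members were scarce in the midgut: the median of their mean levels was 2.64 CPM in control midgut, 10.6 CPM in control hindgut and 2.70 CPM in Hoxd13 midgut 1 to 3. For all genes with a count the medians were 16.7 CPM in control midgut and 17.6 CPM in control hindgut. For the 250 hindgut-high genes above the bound they were 6.70 CPM and 20.4 CPM. In control midgut 35 members were under 1 CPM, 40 reached 5 CPM and 3 reached 100 CPM. Because the rule adds 1 to the CPM, it bounds the ratio to midgut only loosely for the 35 scarcest members. In bulk tissue a lower level cannot be told apart from fewer cells that express the gene.

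Added together, the members took 1332, 1416, 1703 and 1589 CPM in control midgut 1 to 4 and 3272, 3656, 4079 and 3872 CPM in control hindgut 1 to 4. In Hoxd13 midgut 1, 2 and 3 the sum was 1816, 1499 and 1674 CPM. Hoxd13 midgut 1 was thus above all control midguts, the other 2 within their range, and all 3 far under the lowest hindgut. Hoxd13 midgut 4 had the lowest sum of the 12 libraries, 1042 CPM. The median member lay 0.25, 0.02 and 0.03 above its control midgut mean in Hoxd13 midgut 1, 2 and 3, and at -0.19 in Hoxd13 midgut 4, on the log2(CPM + 1) scale.

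**Figure D2:**
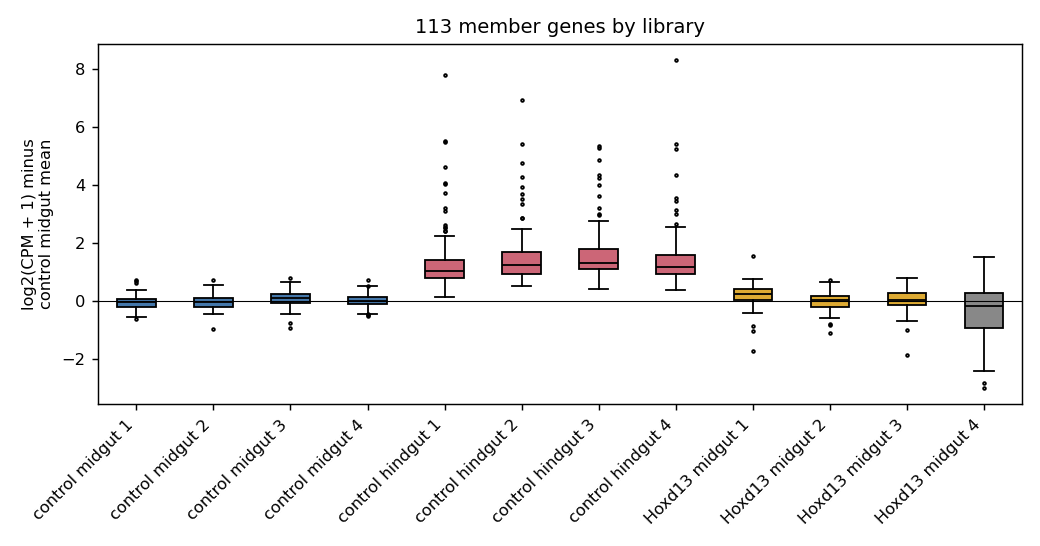
Box plots of the 113 members in each library, as log2(CPM + 1) minus the gene's control midgut mean; boxes span the quartiles, the line is the median, whiskers reach 1.5 box lengths and points lie beyond. Hindgut medians run from 1.02 to 1.30, those of Hoxd13 midgut 1 to 3 from 0.02 to 0.25, and the box of Hoxd13 midgut 4, in grey, reaches from -0.92 to 0.28.

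Some members were absent from the control midguts. There were 7 members with 0 counts in every control midgut, and they were all of the hindgut-high genes with that property. The first of them had 219, 119, 37.7 and 311 CPM in control hindgut 1 to 4, from 394 to 2916 counts, and was the fourth most abundant member in the hindgut. In Hoxd13 midgut 1 to 4 it had 4, 1, 0 and 0 counts. Its hindgut level varied 8.24-fold, with control hindgut 3 lowest. The second had a steady hindgut level of 43.4, 40.9, 39.6 and 36.6 CPM and 3, 0, 0 and 0 counts in Hoxd13 midgut 1 to 4. The third was at 44.7, 18.5, 11.2 and 40.9 CPM in the hindguts, again lowest in control hindgut 3, and had 2, 0, 0 and 0 counts in the Hoxd13 midguts. The fourth had 23.3, 26.0, 27.6 and 19.4 CPM in the hindguts and 2, 1, 1 and 0 counts in the Hoxd13 midguts.

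The fifth had 15.3, 11.8, 18.0 and 10.5 CPM in control hindgut 1 to 4 and 2, 0, 0 and 2 counts in Hoxd13 midgut 1 to 4. The remaining 2 were scarcer, with hindgut means of 5.08 ± 1.76 CPM and 2.30 ± 1.38 CPM (SD, n = 4), and had 1, 0, 1, 0 and 1, 0, 0, 0 counts. Every hindgut held counts of all 7, and none of them had more than 5 counts in Hoxd13 midgut 1 to 3 together. A count of 0 over the 38810866 counts of the 4 control midguts allows up to 3 counts, or 0.0773 CPM, for counting error only. Against that limit, taken over the group, the 7 were 2195-fold, 520-fold, 373-fold, 312-fold, 182-fold, 66.8-fold and 30.3-fold higher in the pooled hindguts. Only the midgut side of these ratios is a limit. The pooled hindgut side is an estimate, and single hindguts lay above and below it. The few counts were unevenly placed: 7 of the 7 had at least 1 count in Hoxd13 midgut 1, 2 each in Hoxd13 midgut 2 and 3, and 1 in Hoxd13 midgut 4. Of all 516 genes at 0 in the control midguts with a count in some other library, 132, 113, 129 and 48 had one in Hoxd13 midgut 1 to 4. These counts are not like for like, because the 7 were chosen for high hindgut levels by a rule that used Hoxd13 midgut 1 to 3. Nothing is read from the difference.

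**Figure D3:**
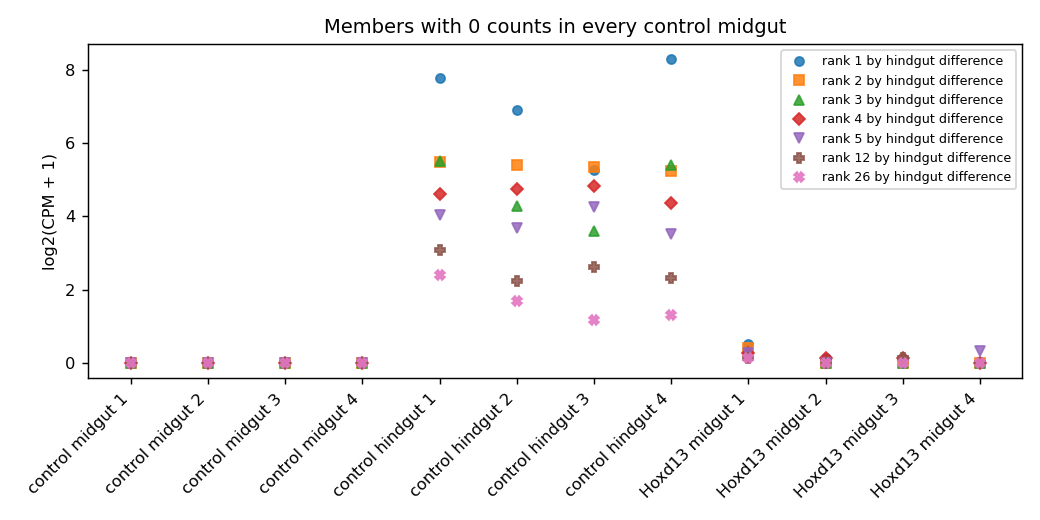
Levels, as log2(CPM + 1), of the 7 members with 0 counts in every control midgut, 1 point per gene and library, with genes marked by their rank among the 113 by hindgut difference. All 4 hindguts hold every gene, and the Hoxd13 midguts stay at 0 or at the level of a few counts, at most 0.429 CPM.

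Another 28 members had some counts in control midgut but a mean under 1 CPM there, and their mean hindgut levels ran from 0.919 to 5.48 CPM with a median of 1.88 CPM. At the other end, 18 members had at least 20 CPM in control midgut. Their hindgut differences were modest and close together, from 0.81 to 1.33 with a median of 1.02, and their Hoxd13 differences ran from -0.17 to 0.27. The most abundant member had 224, 229, 317 and 264 CPM in control midgut 1 to 4, 410, 484, 612 and 512 CPM in control hindgut 1 to 4, and 269, 313 and 306 CPM in Hoxd13 midgut 1 to 3. The hindguts lay above all other libraries, and the Hoxd13 midguts fell within the control midgut range. In Hoxd13 midgut 4 it was lower than in any other library, at 157 CPM.

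The second by abundance had 159, 148, 148 and 153 CPM in the control midguts and 276, 358, 375 and 299 CPM in the hindguts. It was at 211, 166 and 166 CPM in Hoxd13 midgut 1 to 3, each above every control midgut, and at 244 CPM in Hoxd13 midgut 4, still under the lowest hindgut. In this gene the Hoxd13 midguts did not overlap the control midguts although their mean met the bound. The third had 113, 143, 178 and 199 CPM in the control midguts and 207, 283, 332 and 279 CPM in the hindguts. It had 168, 123 and 180 CPM in Hoxd13 midgut 1 to 3, inside the control midgut range, and 41.1 CPM in Hoxd13 midgut 4. The sixth had 41.3, 39.5, 62.5 and 57.1 CPM in the control midguts, 84.7, 129.7, 142 and 157 CPM in the hindguts, 73.6, 43.2 and 41.3 CPM in Hoxd13 midgut 1 to 3 and 11.04 CPM in Hoxd13 midgut 4. Hoxd13 midgut 1 was thus above and Hoxd13 midgut 4 far below every control midgut. The ninth was steady in the control midguts, at 56.7, 59.2, 56.9 and 56.1 CPM, and had 101.3, 106.3, 117.8 and 100.8 CPM in the hindguts. Its levels in Hoxd13 midgut 1 to 4 were 60.8, 59.3, 92.7 and 78.2 CPM, each above the highest control midgut and below the lowest hindgut. The 10 most abundant members made up 52.4% of the summed CPM of all members in the hindgut.

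The rule for naming took the 2 identifiers with the largest hindgut difference and the 2 lowest in Hoxd13 midgut 4 relative to their control midgut mean, both among the 40 members with at least 5 CPM in control midgut. ENSGALG00000046715 had 16.2, 4.47, 10.7 and 10.8 CPM in control midgut 1 to 4 (10.5 ± 4.78, SD, n = 4) and 48.4, 50.6, 60.3 and 35.3 CPM in the hindguts (48.7 ± 10.3, SD, n = 4). In Hoxd13 midgut 1 to 3 it was at 2.25, 12.003 and 15.4 CPM, so the bound on the mean held over libraries that differed widely, with the first of them below every control midgut. In Hoxd13 midgut 4 it was at 1.31 CPM. ENSGALG00000001370 had 16.0, 11.9, 22.1 and 12.9 CPM in the control midguts and 35.7, 51.2, 59.7 and 42.6 CPM in the hindguts. The Hoxd13 midguts 1 to 4 had 26.5, 15.1, 13.8 and 13.3 CPM, with the first above every control midgut and the others inside their range.

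ENSGALG00000034119 had 7.39, 10.1, 3.68 and 8.22 CPM in control midgut 1 to 4 and 15.0, 26.4, 21.6 and 23.4 CPM in the hindguts. It had 9.65, 5.91 and 7.33 CPM in Hoxd13 midgut 1 to 3, all inside the control midgut range, and 0 counts in Hoxd13 midgut 4, where 3 counts would be 0.394 CPM. ENSGALG00000006757 had 12.2, 17.5, 21.8 and 19.9 CPM in the control midguts and 22.3, 30.3, 39.6 and 39.6 CPM in the hindguts, the lowest hindgut only just above the highest midgut. Its Hoxd13 midguts 1 to 3 were close together at 16.4, 16.96 and 15.8 CPM, and Hoxd13 midgut 4 had 1.58 CPM. The last 2 genes were chosen for their difference between Hoxd13 midgut 4 and control midgut, -2.99 and -2.84 on the log2(CPM + 1) scale, so that difference is a description. They did not have the 2 lowest levels in that library.

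**Figure D4:**
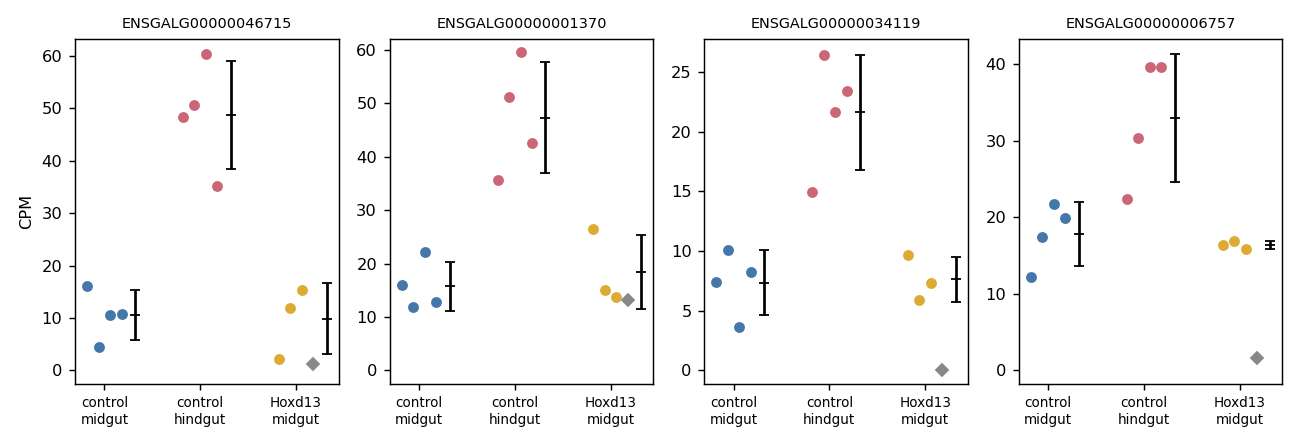
CPM of the 4 named members in each library, with points for libraries and bars for the mean and SD of each group; Hoxd13 midgut 4 is the grey diamond and is left out of the Hoxd13 mean and SD (n = 3; n = 4 in the control groups). In each gene the hindguts lie above all midguts, and the grey diamond is at 1.31, 13.3, 0 and 1.58 CPM from left to right.

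Of the 113 members, 57 were above every control midgut in Hoxd13 midgut 1, 52 within the control range and 4 below it. The counts were 24, 69 and 20 in Hoxd13 midgut 2, and 31, 62 and 20 in Hoxd13 midgut 3. Over all 16067 genes with a count, 37.3%, 37.5% and 41.6% were above every control midgut in these libraries and 12.4%, 17.4% and 20.1% below. The members' shares were 50.4%, 21.2% and 27.4% above and 3.54%, 17.7% and 17.7% below, and nothing is read from them because the bound limited these libraries. All 3 libraries were within the control midgut range in 21 members and above every control midgut in 3. Of 339 single values, 4 reached the lowest hindgut of their gene, in 4 members, and in the other 109 members none did. No shares over all genes were taken for these counts, and nothing is read from them, because the rule limited the same libraries. The Hoxd13 difference was above 0 in 84 members and below 0 in 29, with a median of 0.11. Over all genes with a count the median was also 0.11. In the edgeR fit below, which scales libraries in another way, 62 of the 105 members tested were above 0 and 43 below. The median there was 0.06, against 0.03 over all genes tested. Both counts above 0 include the 7 members at 0 in every control midgut, which could not lie below 0. Nothing is read from either split, because the rule bounded these libraries and no shares over all genes were taken.

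The hindguts also differed among themselves. Control hindgut 3 was the highest hindgut in 54 members and control hindgut 1 the lowest in 51. The ratio of the highest to the lowest hindgut had a median of 1.74 and passed 2 in 33 members, of which 17 were highest in control hindgut 3. Shares over all genes were not taken for these counts, so they are not read as a trait of the members. The median SD of log2(CPM + 1) over the members was 0.23 in control midgut and 0.28 in control hindgut. It was 0.18 and 0.20 over all genes with a count, many of which were more abundant. In the 250 hindgut-high genes above the bound it was 0.24 and 0.25.

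The counts of all genes were fitted in edgeR's quasi-likelihood model, with Hoxd13 midgut 4 as a group of its own, and calls required a p under 0.05 after Benjamini-Hochberg adjustment over the 12931 genes tested. The fit tested 105 members, and the other 8 were too scarce to pass its count filter. The members that passed are not all members, and low ones could pass through their hindgut counts. Since the rule used this contrast, the 99 members called higher in hindgut are a description only, beside 4.72% of all genes tested. All genes called higher numbered 610, and 727 with the replicate numbers as a block. When only the control groups were fitted, 628 genes were called higher without the block and 974 with it, among them 99 and 103 members. In Hoxd13 midgut 1 to 3, 0 members were called higher, beside 1.59% of all genes, and 0 lower, beside 0.920%. At an unadjusted p under 0.05 in the same edgeR test there were 2 members, 1.90%, beside 26.3% of all genes tested. Nothing is read from these counts because the bound set them.

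How closely the data fix the Hoxd13 difference is described by its 95% interval. Standard errors and intervals here and below were derived from the log2 fold change and the F statistic of the test. For some scarce members they are narrower than the p of the same test implies. The median standard error of the log2 fold change of Hoxd13 midgut 1 to 3 against control midgut was 0.32 in the members tested, against 0.17 over all genes tested. In 64 of the 105 members the whole interval lay within a log2 fold change of 1 on either side of 0, and in 16 within 0.5. In the other 41 it reached past 1 in at least 1 direction. The intervals are not a test against the hindgut level, because the rule bounded the Hoxd13 difference from above and the hindgut difference from below in the same libraries. The upper end lay below the hindgut estimate in 104 of the 105 members. The exception was the first of the members absent from control midgut, whose interval is very wide. For the 7 members at 0 in control midgut the Hoxd13 estimates were all above 0, from 1.80 to 3.74. Each rested on at most 5 counts in Hoxd13 midgut 1 to 3, and these genes met the bound because the rule adds 1 to the CPM. They are therefore not shown to be unchanged in ratio. The bound did not limit the ratio in all other members either. The lowest Hoxd13 estimate among the 105 tested was -1.57, with a 95% interval from -3.69 to 0.55.

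**Figure D5:**
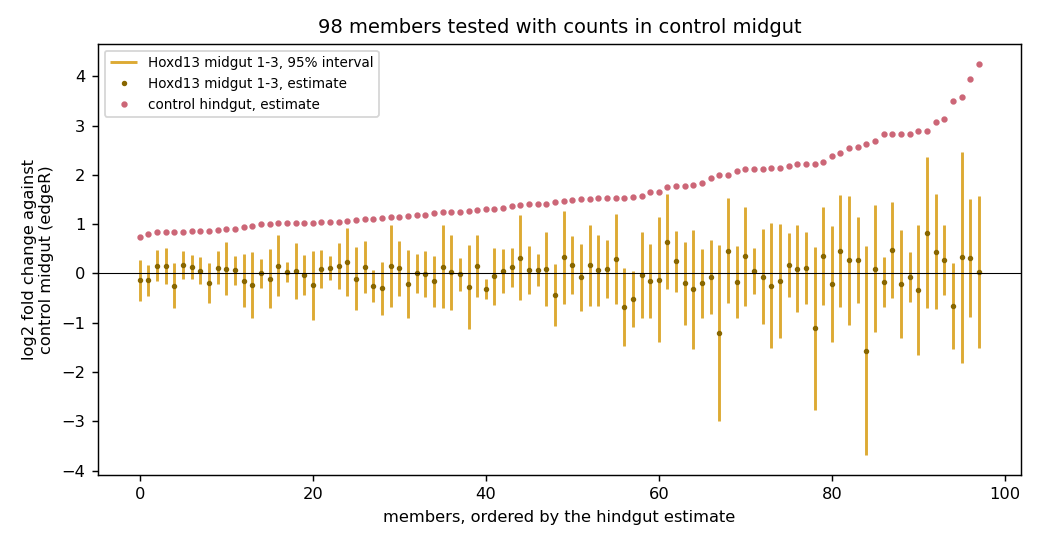
edgeR log2 fold changes against control midgut for the 98 tested members with counts in control midgut, ordered by the hindgut estimate in red. Bars give the 95% interval of Hoxd13 midgut 1 to 3 around its estimate, with ends between -3.69 and 2.46. The rule favoured the separation of the bars from the red points. The 7 members at 0 in control midgut, which include the exception, are not drawn.

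The library that the choice had left out gave a wider picture. Against control midgut, Hoxd13 midgut 4 had 13 members higher and 30 lower among the 105 tested (edgeR, adjusted p under 0.05), 12.4% and 28.6%. Over all genes tested, 26.3% were called higher and 29.9% lower, so the share of members called lower was near the background and the share called higher was below it. These shares are not like for like, because the median standard error here was 0.53 in the members tested and 0.26 over all genes tested. The control midguts of this comparison had also helped to choose the members. The median log2 fold change of the 105 members was -0.30, against -0.06 over all genes tested. Of these, 6 had 0 counts in both, and the other 99 were split into 39 above and 60 below control midgut. The 30 called lower had a median log2 fold change of -2.07 and the 13 called higher one of 1.58. ENSGALG00000046715 had a log2 fold change of -2.79 ± 1.18 (SE) that missed the threshold (edgeR adjusted p = 0.069). The edgeR adjusted p was 0.037 without control midgut 2 and 0.012 without Hoxd13 midgut 1, DESeq2 gave 0.0099, and the range over 17 alternatives was 0.0099 to 0.21. For ENSGALG00000001370 the value was -0.03 ± 0.40 (SE, edgeR adjusted p = 0.96), with a 95% interval from -0.91 to 0.86.

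Hoxd13 midgut 4 was below every control midgut in 4 of the 35 members under 1 CPM in control midgut, in 19 of the 38 from 1 to 5 CPM, in 15 of the 22 from 5 to 20 CPM and in 13 of the 18 above. A gene at 0 in any control midgut cannot lie below all of them, which held for 16 of the 35 scarcest members and for 0 of the others, so the 4 of 35 is not comparable with the rest. Over all genes with a count the shares in these ranges were 19.8%, 48.0%, 48.2% and 51.4%. The 13 of 18 include the first and the third most abundant member described above. In this library 33 of the 113 members were within 0.3 of control midgut, 29.2%, against 31.6% of all genes with a count. These shares are not like for like, because more of the members were scarce and the added 1 keeps differences of scarce genes small. Under 1 CPM in control midgut, 17 of the 35 members and 2157 of all 3456 genes with a count were within 0.3. From 20 CPM up it was 3 of the 18 members and 1857 of all 7441 genes. The fewer genes and the more concentrated counts of Hoxd13 midgut 4 move with these values, and their part in them was not tested.

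Hoxd13 midgut 4 lay below every hindgut in 103 of the 113 members. It was at or above the lowest hindgut in 10 of them, in 80 of the 250 hindgut-high genes above the bound and in 1 of the 18 below it. Over all genes with a count it was so in 54.4%, but the 3 sets had been chosen for high hindgut levels. Its median difference from control midgut was -0.19 in the members, 0.67 in the 250 and -1.30 in the 18. The medians of Hoxd13 midgut 1 to 3, which set these classes, were 0.11, 0.70 and -0.48. All these differences share the control midguts that helped choose the sets. Against control hindgut, edgeR called 75 of the 105 members lower in Hoxd13 midgut 4 and 0 higher, beside 30.2% lower and 25.7% higher of all genes tested. The hindgut libraries had chosen the members for high values, which favours lower calls. The lone library is assumed to vary like the others, and 56.2% of all genes tested were called in it against control midgut, so the calls describe that library.

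Which genes belong to the set depended on single libraries. With each of the 11 libraries of the rule left out in turn, 99 to 143 genes met it, and 50 of the 113 members were chosen every time. With Hoxd13 midgut 4 added to the bound, 122 genes met the rule, of which 74 were among the 113.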

How the data were processed

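The authors deposited estimated counts for each Ensembl gene, all of them already whole. Per the submitters' processing notes, Salmon, DESeq2 and GRCg6a were used; their versions and parts in the work are not given. Columns were assigned by their titles. CPM used library totals. Counts were fitted in R 4.3.3 with edgeR 4.0.16 (TMM, filterByExpr with a count minimum of 10, robust quasi-likelihood F test) in 4 groups, Hoxd13 midgut 4 alone; fold changes are on the TMM scale. The test was checked on simulated counts, in which Hoxd13 midgut 4 was drawn like the other libraries apart from genes changed on purpose. That check does not bear on the calls in the real Hoxd13 midgut 4, whose counts were more concentrated. DESeq2 1.42.0 and limma 3.58.1 (voom) served as alternatives. The filter used the 3 labelled groups. The members and lists were chosen with earlier results of these data known. The planned symbol lists and cell type markers could not be applied, because the reference table, of assembly GRCg7b, had 0 filled Ensembl entries. The naming rule for files without symbols was used.

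The labels do not say whether replicates are separate embryos, so p-values measure the spread between these libraries. Between replicates of a group, squared differences were 15.7 to 124 times what sampling variance gives. The highest ratio was that of Hoxd13 midgut 1 and 4, and the highest without Hoxd13 midgut 4 was 108, of control hindgut 3 and 4. Among Hoxd13 midgut 1 to 3 the ratios were 17.2 to 32.4. Over the genes tested, same-numbered control midgut and hindgut libraries deviated together from their group means (correlations 0.489, 0.435, 0.528 and 0.531), so the numbers pair these groups by the values, though no label states it. Over the members tested the same correlations were lower, at 0.392, 0.204, 0.198 and 0.236. The fits reported first have no pair term, and the blocked counts are given beside them. The correlations of Hoxd13 and control midgut ran from -0.232 to 0.178, and these libraries were not taken as pairs. In the fit of all groups the block still covered the Hoxd13 midguts. Only the blocked fit of the control groups keeps to the pairs seen in the values.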

Additional observations from a re-analysis of the deposited data

Results flagged for a closer look

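A library lay far from the other 3 of its group in 5 of 43 sets of 4 values looked at. Chance gives about 1 in 20 for untied values of genes that were not chosen by them. That does not apply to the 5, because the bound that chose the members used Hoxd13 midgut 1 to 3. ENSGALG00000001370 had 26.5 CPM in Hoxd13 midgut 1, against 13.3 to 15.1 CPM in the other Hoxd13 midguts. ENSGALG00000006757 had 1.58 CPM in Hoxd13 midgut 4, against 15.8 to 16.96 CPM, and had been named for its low value there. In Hoxd13 midgut 1, the members ranked 2, 3 and 26 by hindgut difference had 0.322, 0.214 and 0.107 CPM, from 3, 2 and 1 counts, against 0 in the other Hoxd13 midguts. A single value beside 3 zeros always stands apart by this measure.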

How the results depend on the processing

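Raising the hindgut limit to a difference of 1 left 75 members, and the other 7 settings of the rule gave 77 to 128. Genes called higher in hindgut numbered 974 with a replicate block in a fit of only the control libraries, chosen after seeing the data (628 in that fit without the block), 727 with the block in the fit of all groups and 450 to 624 without single libraries. The block in the fit of all groups also gave the Hoxd13 midguts a term for the replicate number, although they were not taken as pairs. Correlations of Hoxd13 midgut 4 were -0.119 with control midgut 4 and -0.358 with control hindgut 4. Counts called in Hoxd13 midgut 4 under that block are therefore not given. The median log2 fold change of the members in Hoxd13 midgut 4 was -0.36 to -0.22 without single libraries and -0.35 to -0.25 otherwise. ENSGALG00000001370, at -0.03 in Hoxd13 midgut 4 against control midgut, turned positive with limma voom (0.0079), with the replicate block (0.17) and without control midgut 1 (0.0072) or 3 (0.17); it ran from -0.15 to 0.17 without single libraries and passed the test under none of 17 alternatives. Members called higher in hindgut numbered 78 to 105 over 19 alternatives. Counts of members called in Hoxd13 midgut 4 under the alternatives rest on that lone library, and nothing is read from them. Hoxd13 midgut 4 could not be left out of its own comparison. The median standard error for Hoxd13 midgut 1 to 3 was 0.32 in the members tested and 0.17 over all genes tested. Most members had low counts in the midgut, and the part of this in the wider errors was not tested.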
